A study of Mus musculus with 12 samples.

Results

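The genes described here are 10 effectors through which neutrophils are known to restrain T cells or to help tumours: Arg1, Arg2, Nos2, Ido1, Slc27a2, Cd274, Lgals9, Il10, Tgfb1 and Vegfa. They were chosen by symbol from a count table of 29737 mouse genes, and each symbol matched 1 row. RNA was sequenced from bone marrow neutrophils of wild-type mice after 24 h in culture with phosphate-buffered saline (PBS, the control), taurocholic acid (TCA), tauro-β-muricholic acid (Tβ-MCA) or glycocholic acid (GCA), with 3 samples in each of the 4 groups. The cells of every group were enriched with magnetic beads and kept in the same serum-containing medium, so that the added bile acid is the labelled difference. The labels give 200 μM for TCA and GCA and 10 μM for Tβ-MCA, whereas the methods text gives 1 common dose for the 3 acids. Samples are called by the number in their label (3, 5 and 6 for PBS, and 3, 4 and 5 for each acid). Nothing states that they came from separate mice, so the p-values measure the spread between these samples, which may be technical.

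Suppressive neutrophils act on T cells through several routes. Arginases and the inducible nitric oxide synthase use up arginine, indoleamine 2,3-dioxygenase uses up tryptophan, surface ligands such as PD-L1 and galectin-9 engage inhibitory receptors, and secreted interleukin-10 and TGF-β1 dampen activation. VEGF-A drives vessel growth, and the fatty acid transporter FATP2, encoded by Slc27a2, is known for its part in the suppressive activity of neutrophils in tumour-bearing hosts. Bile acids conjugated to taurine or glycine accumulate in the blood and liver when bile flow is blocked, and the comparisons below ask which of these effector transcripts were present and which differed after exposure to each acid.

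Library totals lay between 32757389 and 41375925 counts, and 3 counts, taken here as the limit of detection, correspond to 0.0725 to 0.0916 CPM, the count scaled to a common library total. Markers of neutrophils dominated every library. The 14 genes of that list summed to 43410 to 65740 CPM, against 561 to 3683 CPM for 16 genes of monocytes and macrophages, and 1.53 to 3.40 CPM for 9 genes of T and NK cells, of which 5 passed the filter on low counts. The monocyte and macrophage sum separated Tβ-MCA replicates 3 and 4 (561 and 694 CPM) from replicate 5 (2439 CPM) and from the PBS samples (3175 to 3641 CPM). It was 2149 CPM in GCA replicate 4, below Tβ-MCA replicate 5, and 2880 to 3683 CPM with TCA. Of these 16 genes, all were lower in the Tβ-MCA mean than in the PBS mean, and 1, Ly6c2, passed the test. That is 6.25% of the list, against 3.18% of all genes called lower. Without Tβ-MCA replicate 5, 11 of the 16 were called lower, against 9.44% of all genes. The neutrophil sum was also lower with Tβ-MCA, at 43410 to 48950 CPM against 53330 to 65740 CPM with PBS, and 13 of its 14 genes had a negative fold change. That sum was 48710 to 60350 CPM with GCA and 51330 to 62770 CPM with TCA. In bulk RNA, fewer cells of a type and less RNA per cell cannot be told apart. These shifts accompany each Tβ-MCA comparison below, and their part in the results was not tested.

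The effectors fell into an abundant and a scarce set. In RPKM, which scales counts by transcript length and so allows genes to be compared, the PBS means ran from 40.8 for Vegfa through 26.7 for Lgals9, 21.4 for Arg2, 14.4 for Cd274, 14.0 for Tgfb1, 10.2 for Il10 and 6.50 for Slc27a2 to 0.436 for Nos2, 0.166 for Arg1 and 0.101 for Ido1. Neighbours in this order were separated in all 3 PBS samples except for Cd274 and Tgfb1, and for Arg1 and Ido1. Across all 12 samples, 9 effectors had at least 3 counts everywhere and 8 had at least 10; Arg1 missed the first limit, and Arg1 and Ido1 the second. By PBS level, Vegfa stood above 95.2% of all 29737 genes counted and Slc27a2 above 79.7%, whereas Nos2, Arg1 and Ido1 stood above 51.8%, 43.1% and 38.6%. These shares include the genes that the filter on low counts removed, so they overstate the rank among genes tested.

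**Figure D1:**
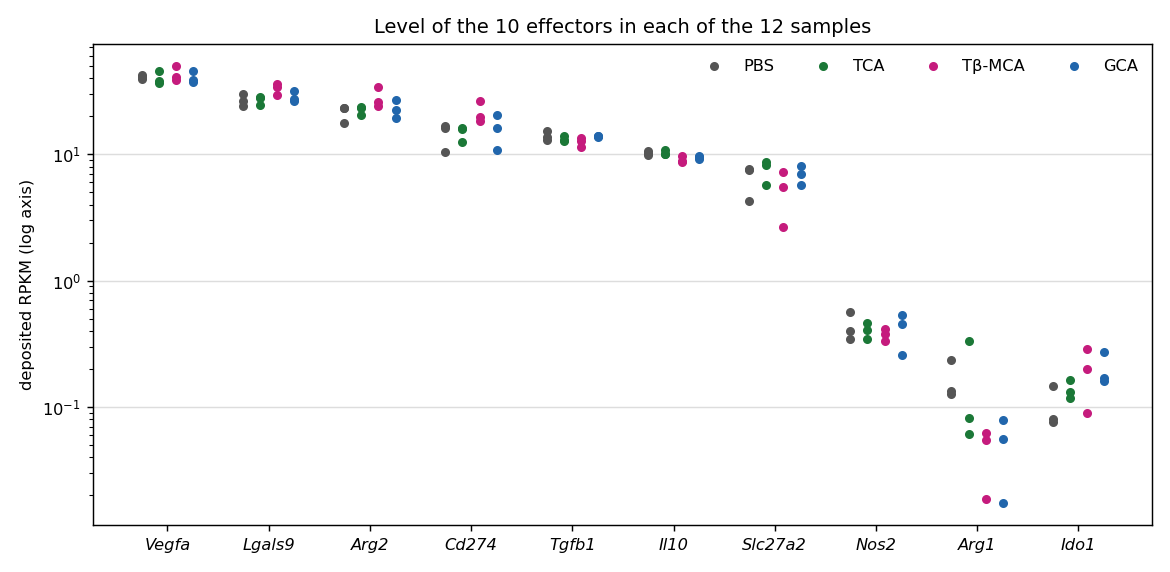
Deposited RPKM of each effector (vertical log axis) in the 12 samples, with genes ordered by their PBS mean and points coloured by treatment. Vegfa to Slc27a2 lie between 2.67 and 50.1 RPKM, while Nos2, Arg1 and Ido1 reach at most 0.565 RPKM.

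Arginase was present almost entirely as Arg2, the mitochondrial enzyme, and hardly as Arg1, the cytosolic enzyme usually measured in suppressive myeloid cells. Arg1 (chr10:24915208-24927470, minus strand, GRCm38) had 7, 12 and 7 counts in the PBS samples, 3, 5 and 18 with TCA, 3, 1 and 3 with Tβ-MCA, and 3, 4 and 1 with GCA. All Tβ-MCA and all GCA samples thus lay below all PBS samples, while the TCA samples overlapped them and 18 of the 26 TCA counts came from replicate 5. Summed per group and scaled to library size, the ratio to PBS was 0.273 for Tβ-MCA (exact 95% interval 0.100 to 0.647) and 0.302 for GCA (0.118 to 0.687), and 0.962 for TCA (0.537 to 1.72). These intervals cover counting error only. Over samples, the exact two-sided permutation p was 0.1 for both Tβ-MCA and GCA against PBS, the smallest that 3 against 3 samples allow. Arg1 did not pass the filter on low counts and was therefore not among the 9 effectors tested across genes. Its share of all arginase counts ranged from 0.0568% in Tβ-MCA replicate 4 (95% Wilson interval 0.0100% to 0.321%) to 1.42% in TCA replicate 5 (0.898% to 2.23%).

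Arg2 (chr12:79130777-79156301, plus strand) measured 25.8, 33.6 and 33.2 CPM with PBS, 29.9, 33.5 and 33.9 CPM with TCA, 36.2, 47.5 and 34.3 CPM with Tβ-MCA, and 28.4, 37.4 and 32.2 CPM with GCA. CPM values here are scaled by the TMM factors. All Tβ-MCA samples lay above all PBS samples, although the lowest of the former (34.3) was close to the highest of the latter (33.6), and Tβ-MCA replicate 4 was the highest. The mean with Tβ-MCA was 1.27 times that with PBS (95% interval 1.04 to 1.56, log2 fold change 0.35 ± 0.14 SE, n = 3 per group), with an edgeR adjusted p of 0.130. Without Tβ-MCA replicate 5 the log2 fold change was 0.44 and the adjusted p 0.0481. Last, 285 exon bases of Arg2 are shared with Vti1b, on the other strand, which had 5508 to 6469 counts a sample. The libraries were stranded, but whether counting used the strand is not given in the sources used here, so reads in that stretch may belong to either gene.

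Nos2, the inducible nitric oxide synthase (chr11:78920787-78960254, plus strand), was scarce in every group. It measured 2.55, 1.77 and 1.54 CPM with PBS, 1.86, 1.52 and 2.03 CPM with TCA, 1.44, 1.62 and 1.82 CPM with Tβ-MCA, and 2.03, 1.12 and 2.39 CPM with GCA. The groups overlapped in every comparison. For Tβ-MCA against PBS the log2 fold change was -0.26 (95% interval -0.84 to 0.32), which spans both directions. Ido1, which degrades tryptophan (chr8:24584136-24597009, minus strand), was rarer still, with 5 to 10 counts a sample in PBS, 8 to 10 with TCA, 6 to 19 with Tβ-MCA and 10 to 18 with GCA. The GCA samples (0.507, 0.286 and 0.311 CPM) all lay above the PBS samples (0.143, 0.147 and 0.270 CPM), while the Tβ-MCA samples (0.359, 0.513 and 0.161 CPM) overlapped them. Its log2 fold change was 0.96 with GCA (-0.14 to 2.05) and 0.86 with Tβ-MCA (-0.25 to 1.96), with edgeR adjusted p of 0.999 and 0.326. At this depth neither difference was detectable. Ido1 also passed the filter on low counts through samples with bile acid, where it was higher, and not through the PBS samples. Its higher values than with PBS are therefore partly favoured by the filter.

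Slc27a2 (chr2:126552407-126588243, plus strand) varied most among the abundant effectors, with a highest sample 3.33 times the lowest. It measured 16.6, 29.1 and 28.3 CPM with PBS, 22.2, 31.1 and 32.8 CPM with TCA, 9.84, 20.0 and 26.9 CPM with Tβ-MCA, and 21.9, 25.6 and 30.4 CPM with GCA. The sample numbered 3 was the lowest in each group, and the groups overlapped in each comparison with PBS. The log2 fold change against PBS was -0.38 for Tβ-MCA (-1.19 to 0.43), 0.22 for TCA (-0.58 to 1.02) and 0.08 for GCA (-0.72 to 0.88). Against TCA it was -0.60 for Tβ-MCA (-1.41 to 0.20, adjusted p = 0.366). An antisense gene, Gm26697, with 48 to 129 counts a sample, shares 419 exon bases with Slc27a2.

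Both ligands of inhibitory receptors had a higher mean with Tβ-MCA than with PBS. Cd274, which encodes PD-L1, the ligand of PD-1 (chr19:29367455-29388095, plus strand), measured 39.0, 60.9 and 58.4 CPM with PBS and 70.1, 92.3 and 65.7 CPM with Tβ-MCA. All Tβ-MCA samples were above all PBS samples, although the spread was wide in both groups. It measured 46.7, 56.9 and 58.2 CPM with TCA and 39.8, 72.6 and 58.8 CPM with GCA, and both of these groups overlapped PBS. The Tβ-MCA mean was 1.44 times the PBS mean (0.991 to 2.10), a log2 fold change of 0.53 ± 0.24 (SE) with an adjusted p of 0.212. Lgals9, which encodes galectin-9, a ligand of TIM-3 (chr11:78962974-78984946, minus strand), measured 52.3, 57.1 and 63.8 CPM with PBS, 53.8, 60.4 and 59.8 CPM with TCA, 71.0, 74.3 and 62.1 CPM with Tβ-MCA, and 57.7, 66.2 and 58.6 CPM with GCA. Replicates 3 and 4 of Tβ-MCA lay above all PBS samples, and replicate 5 lay within the PBS range. Its Tβ-MCA mean was 1.20 times that of PBS (1.05 to 1.37), with a log2 fold change of 0.26 ± 0.09 (SE) and an adjusted p of 0.0868, the lowest of the 9 effectors. Without Tβ-MCA replicate 5 the log2 fold change of Lgals9 was 0.33 with an adjusted p of 0.0188, whereas that of Cd274 was 0.62 with an adjusted p of 0.166. Lgals9 ends 2719 bases beyond the end of Nos2 on the same chromosome, tail to tail.

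The bases before the start of Cd274, Lgals9 and Tgfb1 are shown because the first had the largest fold change with Tβ-MCA among the abundant effectors, the second the lowest p and the last a lower mean, and because the first and second are known targets of interferon signalling. RefSeq promoters were matched for 5 of the 10 effectors, and each line holds the 250 bases before the RefSeq start, which can lie a few bases from the gene limits given above, 5′ to 3′ on the gene's strand (GRCm38.p6, chr19:29367188-29367437, chr11:78984925-78985174 and chr7:25686752-25687001). Capitals mark AANNGAAA, an interferon regulatory factor motif, searched on both strands.
Cd274: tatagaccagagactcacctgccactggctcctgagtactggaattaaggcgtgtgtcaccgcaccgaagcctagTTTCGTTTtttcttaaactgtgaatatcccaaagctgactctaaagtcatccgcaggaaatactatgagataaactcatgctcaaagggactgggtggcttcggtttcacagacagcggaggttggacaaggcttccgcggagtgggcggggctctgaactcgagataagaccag
Lgals9: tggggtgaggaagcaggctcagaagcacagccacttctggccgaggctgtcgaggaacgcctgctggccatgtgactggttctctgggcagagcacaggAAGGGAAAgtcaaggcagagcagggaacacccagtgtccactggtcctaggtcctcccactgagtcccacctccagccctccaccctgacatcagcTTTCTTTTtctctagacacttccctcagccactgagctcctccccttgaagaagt
Tgfb1: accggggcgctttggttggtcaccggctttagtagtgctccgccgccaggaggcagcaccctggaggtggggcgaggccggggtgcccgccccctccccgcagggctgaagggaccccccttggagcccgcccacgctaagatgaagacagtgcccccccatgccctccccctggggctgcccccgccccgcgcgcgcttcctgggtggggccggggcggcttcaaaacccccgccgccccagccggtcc

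The motif began 175 bases before the Cd274 start, and 151 and 55 bases before the Lgals9 start. It also began 142 bases before a Vegfa start, and the log2 fold change of Vegfa with Tβ-MCA was 0.04. It occurs in 21.3% of 32851 promoter windows of the same length, so its presence is a description of these letters and not of a bound factor. The Tgfb1 window held none of the motifs searched, which were AANNGAAA, the STAT element TTCNNNGAA (7.02% of windows), the hypoxia core ACGTG (16.6%) and TATAAA (12.4%), and no matches overlapped each other. It held 21 CpG dinucleotides, against 11 for Cd274, 3 for Lgals9 and a median of 6 over all windows.

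The secreted cytokines gave lower values with Tβ-MCA. Il10 (chr1:131019845-131024974, plus strand), the cytokine that restrains antigen-presenting cells, measured 13.1, 13.5 and 14.1 CPM with PBS, 14.5, 13.1 and 13.1 CPM with TCA, 11.2, 11.3 and 12.4 CPM with Tβ-MCA, and 12.2, 12.3 and 12.8 CPM with GCA. The Tβ-MCA and the GCA samples lay below every PBS sample, and replicates agreed closely. The log2 fold change against PBS was -0.22 ± 0.09 (SE) for Tβ-MCA with an adjusted p of 0.130, and -0.13 for GCA (-0.32 to 0.06) with an adjusted p of 0.999. Tgfb1 (chr7:25687002-25705077, plus strand), the latent cytokine that favours regulatory T cells, measured 79.2, 69.3 and 65.8 CPM with PBS, 67.6, 70.3 and 64.0 CPM with TCA, 62.7, 56.0 and 67.2 CPM with Tβ-MCA, and 70.6, 69.5 and 71.2 CPM with GCA. Replicates 3 and 4 of Tβ-MCA were below all PBS samples, and replicate 5 was not. Its log2 fold change with Tβ-MCA was -0.20 ± 0.08 (SE), with an adjusted p of 0.129, and without replicate 5 it was -0.27 with an adjusted p of 0.0393. Vegfa (chr17:46016993-46032369, minus strand), the most abundant effector, measured 186, 175 and 169 CPM with PBS, 202, 161 and 157 CPM with TCA, 210, 171 and 164 CPM with Tβ-MCA, and 197, 161 and 163 CPM with GCA. The sample numbered 3 was the highest in each group and the groups overlapped throughout, with a log2 fold change of 0.04 for Tβ-MCA against PBS (-0.21 to 0.28).

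**Figure D2:**
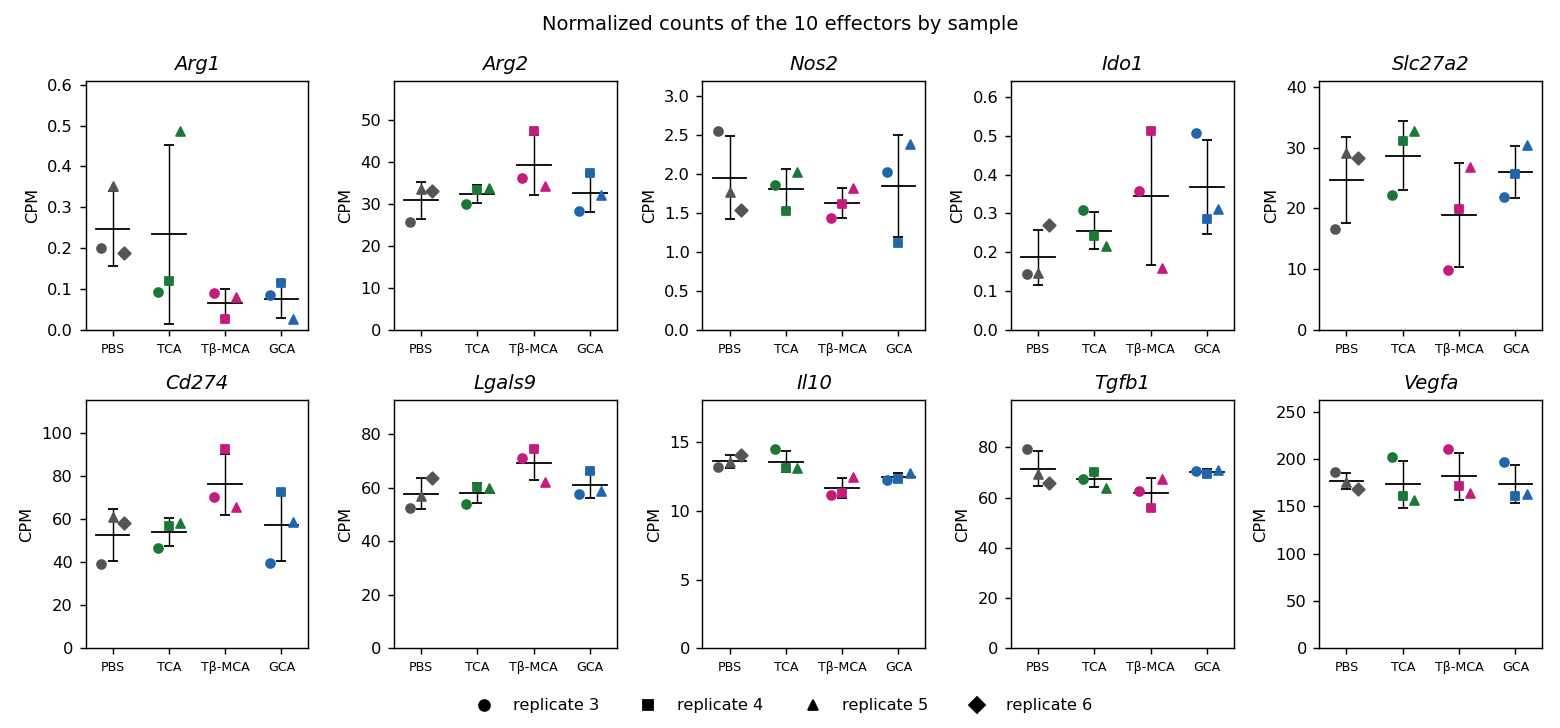
TMM-scaled CPM of each effector (vertical axes from 0) by treatment, with 1 point per sample, its shape giving the replicate number, and a bar and whiskers for the mean ± SD (n = 3). Arg2 and Cd274 are higher in all 3 Tβ-MCA samples than in all PBS samples, Il10 and Arg1 are lower, and in the other panels Tβ-MCA and PBS overlap.

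Against PBS, the lowest p-values came with Tβ-MCA, for higher Lgals9, Arg2 and Cd274, and lower Il10 and Tgfb1. Their edgeR adjusted p ran from 0.0868 to 0.212, and none passed the threshold. With edgeR's quasi-likelihood test and an adjusted p under 0.05, 0 of the 9 effectors tested were called, against 7.62% of all 16761 genes tested (745, or 4.44%, higher and 533, or 3.18%, lower). Scaling by total library size in place of TMM split the calls over all genes into 1013 higher and 395 lower, with 0 effectors called. At an unadjusted p under 0.05, 4 effectors passed (Lgals9 and Arg2 higher, Il10 and Tgfb1 lower), against 24.9% of all genes, and DESeq2 also called 0 effectors after adjustment. The Tβ-MCA samples did not overlap PBS for 3 of the 9 (Arg2 and Cd274 higher, Il10 lower), against 27.0% of all genes. At the thresholds named in the methods, an unadjusted p under 0.05 and at least a 2-fold change, 0 effectors passed, against 2.95% of all genes. The median absolute log2 fold change was 0.26 over the effectors and 0.19 over all genes, and the median signed values were 0.04 and 0.00. The adjusted p of the 9 ranged from 0.0868 to 0.874.

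**Figure D3:**
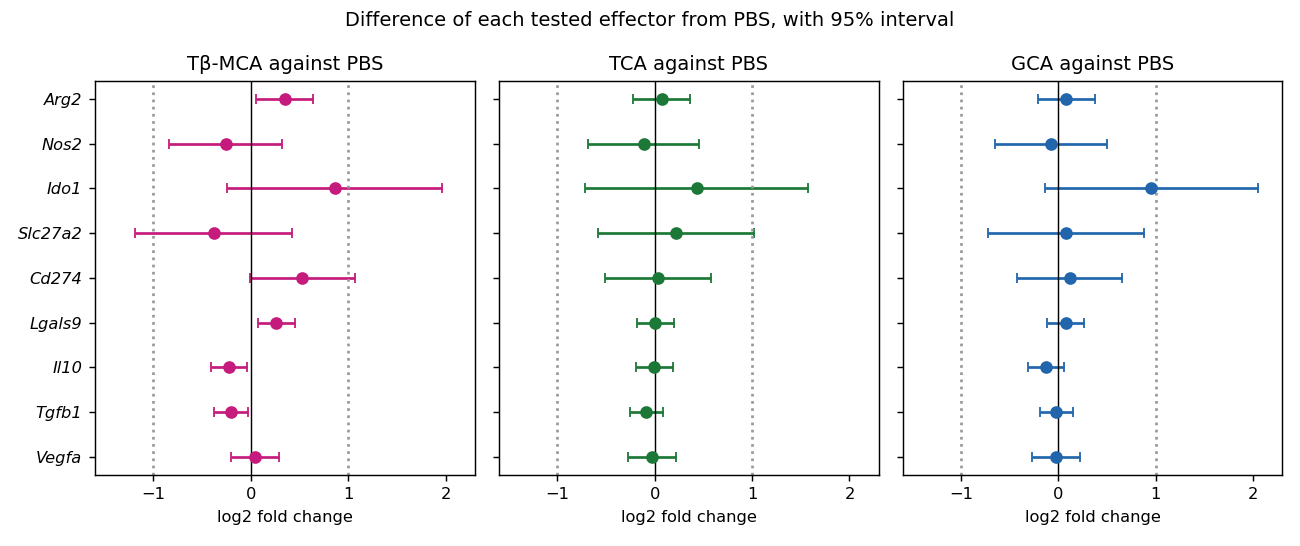
Log2 fold change of the 9 tested effectors (points) with 95% intervals (bars) for each bile acid against PBS, with dotted lines at a 2-fold change. For Tβ-MCA the intervals of Arg2, Lgals9, Il10 and Tgfb1 leave out 0 before adjustment over genes, and for TCA and GCA every interval includes it.

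Replicate 5 of Tβ-MCA lay nearer to the PBS mean than replicates 3 and 4 did in 8 of the 10 effectors, the exceptions being Arg1 and Vegfa, and also in the monocyte and macrophage sum given above. Of all other libraries, that of GCA replicate 4 was the closest to it in counts over genes. Without Tβ-MCA replicate 5, 3 of 10 effectors were called against PBS (Lgals9 and Arg2 higher, Tgfb1 lower), against 18.0% of the 17131 genes then tested. Il10 (log2 fold change -0.28, adjusted p = 0.0632) and Cd274 were not called. In replicates 3 and 4 alone, Lgals9 averaged 72.7 CPM, Cd274 81.2 CPM and Arg2 41.9 CPM, and 6 of the 9 effectors tested with all samples did not overlap PBS, Lgals9, Ido1 and Tgfb1 being added, against 45.7% of all genes. Leaving out the sample nearest to PBS favours such separation, and overlap was not recounted with any other sample left out. These values are therefore a description and no support for a difference. Each of the other samples bore on the calls over all genes as well. Leaving out PBS replicate 3 or 5 or Tβ-MCA replicate 3 or 4 left 0 genes called, and leaving out PBS replicate 6 left 168, with 0 effectors called in each. With no filter on low counts, 4 effectors were called (Arg2, Cd274, Lgals9 and Slc27a2), against 8.09% of all genes. In that fit the spread was not estimated gene by gene: the quasi-dispersion assigned to Cd274 was 0.616, against 4.66 in the filtered fit.

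**Figure D4:**
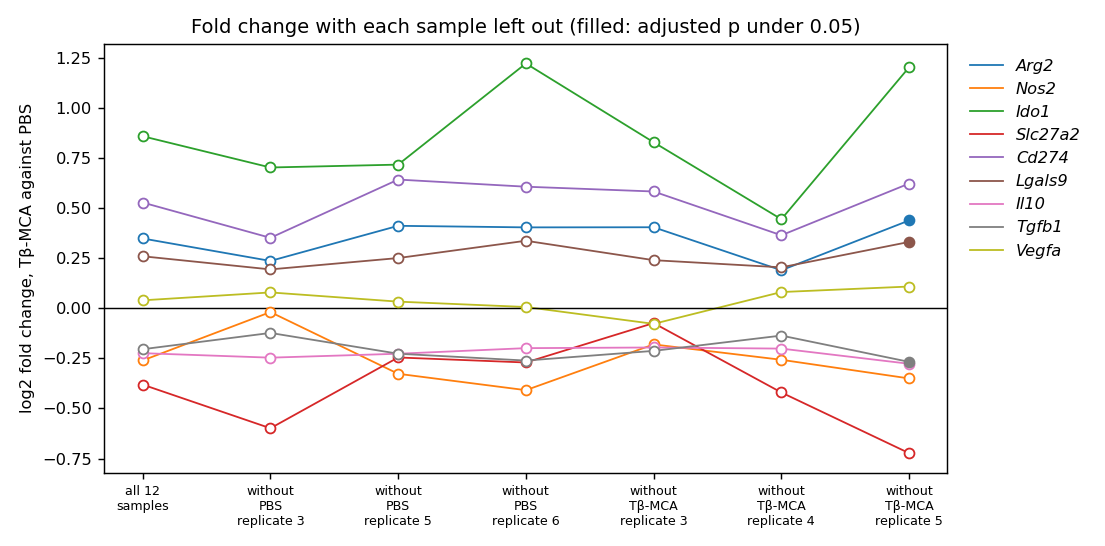
Log2 fold change of the 9 tested effectors between Tβ-MCA and PBS (vertical axis) with all 12 samples and with each sample of these groups left out in turn; filled points have an edgeR adjusted p under 0.05. Filled points appear only without Tβ-MCA replicate 5, for Lgals9 at 0.33, Arg2 at 0.44 and Tgfb1 at -0.27.

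With TCA, no effector differed from PBS beyond the spread between samples. Fold changes ran from -0.11 (Nos2) to 0.43 (Ido1) on the log2 scale, 0 of 9 effectors were called, as was 0% of all genes with edgeR, and 0 effectors had an unadjusted p under 0.05, against 3.26% of all genes. DESeq2 called 1 gene and 0 effectors. No effector separated the TCA from the PBS samples, against 9.67% of all genes. The 95% interval of the log2 fold change was -0.18 to 0.20 for Lgals9, -0.19 to 0.18 for Il10, -0.27 to 0.22 for Vegfa and -0.51 to 0.58 for Cd274. The interval was thus narrower for Lgals9, Il10 and Vegfa than for Cd274. Cd274 had 1358 to 3419 counts a sample and Il10 had 373 to 542, and the cause of the difference in width was not tested.

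With GCA as well, no effector passed the test. The log2 fold changes lay between -0.13 (Il10) and 0.96 (Ido1), and 0 of 9 effectors and 0% of all genes were called with edgeR, while 0 effectors and 3.53% of all genes had an unadjusted p under 0.05. DESeq2 called 0 genes. The GCA samples did not overlap PBS for Ido1 (higher) and Il10 (lower), 2 of 9 effectors, against 9.55% of all genes. Ido1 was tested only because samples with bile acid carried it through the filter, so its separation is partly built in. The interval for Lgals9 was -0.12 to 0.27, for Arg2 -0.21 to 0.37 and for Cd274 -0.43 to 0.66. The comparisons of the 3 acids with PBS share the PBS samples.

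Between acids, no effector passed the edgeR test for Tβ-MCA against TCA, at labelled doses that differ (10 and 200 μM). Both are taurine conjugates, of β-muricholic and of cholic acid. Values with Tβ-MCA were higher for Lgals9 (log2 fold change 0.25, 0.06 to 0.44, adjusted p = 0.111), Cd274 (0.50, -0.05 to 1.04, adjusted p = 0.266) and Arg2 (0.28, -0.02 to 0.57, adjusted p = 0.252), and lower for Il10 (-0.22, -0.41 to -0.03, adjusted p = 0.155). All Tβ-MCA samples lay above all TCA samples for Lgals9, Cd274 and Arg2 and below them for Il10, 4 of 9 effectors, against 25.3% of all genes. With edgeR, 0 of 9 effectors were called, against 3.51% of all genes (372 higher, 216 lower, and 585 higher and 190 lower when scaled by total library size). At an unadjusted p under 0.05, 2 effectors passed (Lgals9 and Il10), against 22.2% of all genes, and DESeq2 called 0 effectors. Without Tβ-MCA replicate 5, Lgals9 was called (0.32, adjusted p = 0.0239), against 15.3% of all genes. Leaving out any other sample of these groups left 0 genes called. With no filter, Cd274 and Slc27a2 were called, against 6.98% of all genes.

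GCA and TCA, the glycine and the taurine conjugate of the same cholic acid, were labelled with the same dose and time. No effector difference beyond the spread between samples was detected, with 0 of 9 effectors and 0% of genes called by edgeR, and 0 effectors and 2.46% of genes at an unadjusted p under 0.05, while DESeq2 called 0 genes. The interval of the log2 difference, GCA minus TCA, was -0.12 to 0.26 for Lgals9, -0.31 to 0.06 for Il10, -0.28 to 0.30 for Arg2, -0.46 to 0.62 for Cd274 and -0.94 to 0.65 for Slc27a2. Of the 9, only Il10 did not overlap between the groups (lower with GCA), against 1341 of all 16761 genes tested. In total, 5 comparisons were made, and p-values were adjusted over genes within each.

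Around the effectors, 7 of 8 pathway lists held genes that were called between Tβ-MCA and PBS, with 0% to 27.6% of a list called, against 7.62% of all genes (4.44% higher and 3.18% lower). The lists were chosen with earlier results of these data known, so their shares are a description and not an independent test. Among 24 tested ligands and receptors of T cell contact, 4 rose and 0 fell: Pdcd1lg2, encoding PD-L2, the other ligand of PD-1 (3.47 ± 0.497 to 5.72 ± 0.483 CPM, SD, n = 3, log2 fold change 0.72, adjusted p = 0.0238 with edgeR), Sirpa, the receptor of CD47 (0.26, adjusted p = 0.0290), Lgals8, another galectin (0.28, adjusted p = 0.0347), and Cd40 (0.89, adjusted p = 0.0380). The median of this list was -0.22, against 0.00 over all genes, so most of its members had lower values. In the interleukin-10 pathway, of 18 tested, Tyk2, a kinase of the receptor (0.35), and Il10rb, its shared chain (0.50), rose, and Il12a, a subunit of interleukin-12 (-0.64), fell. The TGF-β list had 2 genes that rose and 3 that fell of 23. Tgfbr2, the signalling receptor (68.3 ± 2.46 to 95.5 ± 8.49 CPM, SD, n = 3, log2 fold change 0.48), and Nrros, which holds latent TGF-β1 at the cell surface (0.38), rose, while Skil, a repressor of SMAD signalling (-0.25), Tgfbr3, a co-receptor (-0.77), and Smurf2 fell. Smurf2 lies outside the naming rule.

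Of 19 tested genes of arginine and nitric oxide metabolism, 0 rose and 2 fell, namely Ass1, which rebuilds arginine from citrulline (13.4 ± 0.583 to 7.49 ± 2.40 CPM, SD, n = 3, log2 fold change -0.84, adjusted p = 0.0240 with edgeR), and Srm, spermidine synthase (-0.78, adjusted p = 0.0468). No gene of 16 in tryptophan and aryl hydrocarbon receptor signalling was called, and the most abundant, Arnt, had a log2 fold change of 0.00. Among angiogenic factors 1 of 13 fell, the gelatinase gene Mmp9 (-0.63), and among 20 genes of fatty acid and prostaglandin E2 metabolism 1 fell, Hpgd, which inactivates prostaglandin E2 (0.629 ± 0.242 to 0.0916 ± 0.0276 CPM, SD, n = 3, the latter near the limit of detection). Among 29 genes often reported in suppressor neutrophils, 1 rose and 7 fell, 27.6% of a list chosen, like the others, with earlier results known. Ddit3, a transcription factor of the unfolded protein response, rose (0.47), and Xbp1, another such factor (-0.49), Ncf1, a subunit of the oxidant-producing oxidase (-0.34), and Ccr1, a chemokine receptor (-0.74), were among those that fell. The neutrophil markers Ly6g (-0.99), S100a8 (-0.30), Lcn2 (-0.29), Camp (-1.14) and Mmp9 fell as well, 5 of 14 (35.7%, against 3.18% of all genes lower).

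These pathway calls rest on the whole set of samples. With PBS replicate 3 or 5 or Tβ-MCA replicate 3 or 4 left out, or with the other groups left out of the fit, 0 genes were called. Without Tβ-MCA replicate 5 the calls became 5 higher and 4 lower among the contact genes and 2 higher and 16 lower among the suppressor-neutrophil genes, against 18.0% of all genes, and each pathway gene named above with its value, other than Srm and Arnt, was called. Scaling by total library size kept the sign of each of these genes that was called with all samples, but Il12a, Skil and Srm were then not called. Against TCA, Tβ-MCA gave 2 higher and 0 lower contact genes and 1 higher and 4 lower suppressor-neutrophil genes, against 3.51% of all genes.

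**Figure D5:**
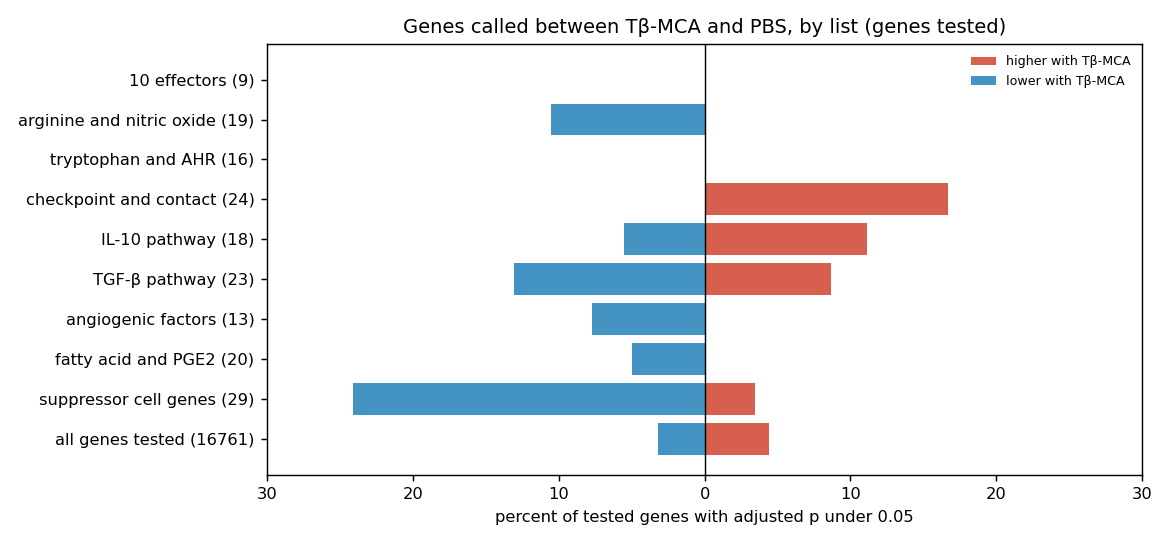
Percent of tested genes (number in brackets) with an edgeR adjusted p under 0.05 between Tβ-MCA and PBS, higher to the right and lower to the left, for the effectors, 8 pathway lists and all genes. The effector row is empty, the contact list has 4 of 24 higher, and the suppressor cell list has 7 of 29 lower.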

How the data were processed

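RNA of cultured bone marrow neutrophils was measured in 12 libraries, 3 for the control and for each of the bile acids. The authors trimmed the reads with Trimmomatic (0.36). They deposited raw counts of reads over exons (featureCounts, Subread 1.5.1) and the RPKM values calculated from them, and the submitters' processing notes also name STAR (2.5.3a) and GRCm38. The deposited RPKM were recovered from the counts and gene lengths within a relative difference of 1.3e-06, and no library pair of a group agreed within sampling noise. By the chi-squared of count differences per degree of freedom, the closest pair lay across groups, Tβ-MCA replicate 5 with GCA replicate 4 (2.95). The closest pair within a group, TCA replicates 4 and 5, had 5.19. Tβ-MCA replicate 5 had 38.1 and 27.9 with replicates 3 and 4 of its group. The cause was not tested. The GCA columns are headed GA and were matched to the GCA samples, the only others.

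Counts were tested with edgeR (4.0.16, R 4.3.3), using TMM scaling, filterByExpr by group, a robust quasi-likelihood fit of group means to all 12 samples, and Benjamini-Hochberg adjustment over the 16761 genes kept. A gene was called at an adjusted p under 0.05. The fit was tested on simulated data. Alternatives were DESeq2 (1.42.0), limma (3.58.1) on log2(RPKM + 1) for genes with a mean RPKM of at least 0.5, other scalings and filters, a replicate block, the 2 compared groups alone, and each sample left out. Arg1 was compared by summed counts and an exact permutation test.

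All 10 effectors are named, and from each pathway list up to 4 called genes with the lowest p between Tβ-MCA and PBS, or the most abundant gene where none was called. The effectors and lists were chosen with earlier results of these data known. Promoter sequences come from RefSeq (GRCm38.p6).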

Additional observations from a re-analysis of the deposited data

How the results depend on the processing

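Of 613 alternative values of the effectors' fold changes, 558 kept their direction and stayed uncalled, 13 passed the threshold in the same direction and 42 changed sign, none of the last called. No effector had passed it in the original fit, so none could fall short of it. The counts of effectors called were 0 throughout for TCA against PBS, GCA against PBS and GCA against TCA. For Tβ-MCA against PBS they were 4 with no filter, 1 with the replicate block (Lgals9, adjusted p = 0.0344, against 8.94% of all genes) and 0 to 3 with 1 sample left out. For Tβ-MCA against TCA they were 2 with no filter, 2 with the replicate block (Lgals9, adjusted p = 0.0220, and Slc27a2, adjusted p = 0.0359, against 13.9% of all genes) and 0 to 1 with 1 sample left out.

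Counts over all genes moved further. For Tβ-MCA against PBS (1278), they were 2406 with no filter, 0 with only the groups compared, 2079 with DESeq2, 494 at an unadjusted p under 0.05 with a 2-fold change, and 0 to 3076 with 1 sample left out. For Tβ-MCA against TCA (588), they were 2077 with no filter, 2322 with the replicate block, 72 with only the groups compared, 1620 with DESeq2, 0 with limma, and 0 to 2619 with 1 sample left out. For TCA against PBS (0), they were 37 with no filter, 3 with the block, 1 with DESeq2 and 78 at the unadjusted threshold. For GCA against PBS (0) they were 36 and 89, and for GCA against TCA (0) 42 and 74, with no filter and at the unadjusted threshold. With no filter the spread was not estimated gene by gene. The cause of the other shifts was not tested.

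Same-numbered samples correlated at a mean r of 0.19 (0.06 to 0.33, 15 pairs) and others at -0.072, and 26 of 30 best matches were with the same number. Since some pairs lay under 0.1 and no label ties the numbers to animals, the block is only an alternative. Of 26 pathway and marker genes that the naming rule gave as called between Tβ-MCA and PBS, 10 were not called with it (Srm, Lgals8, Cd40, Nrros, Mmp9, Ddit3, Ccr1, Camp, Ly6c2 and Cd79a, adjusted p = 0.0530 to 0.140 with edgeR).

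With 1 sample left out, log2 fold changes crossed 0 for Vegfa with Tβ-MCA against PBS (-0.078 to 0.11) and against TCA (-0.048 to 0.19). For TCA against PBS they did so for Arg2 (-0.043 to 0.14), Nos2 (-0.26 to 0.12), Cd274 (-0.15 to 0.15), Lgals9 (-0.061 to 0.085), Il10 (-0.052 to 0.022) and Vegfa (-0.15 to 0.038). For GCA against PBS they did so for Arg2 (-0.030 to 0.17), Nos2 (-0.31 to 0.18), Cd274 (-0.10 to 0.32), Tgfb1 (-0.077 to 0.061), Vegfa (-0.13 to 0.024) and Slc27a2 (-0.14 to 0.21), and for GCA against TCA for Arg2 (-0.10 to 0.10), Nos2 (-0.19 to 0.29), Cd274 (-0.13 to 0.28) and Vegfa (-0.10 to 0.13). Il10 in TCA against PBS was 0.00087 with no filter, 0.041 with the block and 0.00063 with limma. Low counts limit the precision for Arg1 (1 to 18 a sample) and Ido1 (5 to 19).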

Other observations

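The sample numbered 3 in each group differed from its group in several effectors, whatever the treatment. Vegfa was highest in the sample numbered 3 in 4 of 4 groups and Slc27a2 was lowest there in 4 of 4, while Arg2, Cd274 and Lgals9 were lowest there in 3 of 4. Il10 was lowest there in 3 of 4 as well, but highest there with TCA. On average over the groups, the log2 value of that sample minus the mean of the others was 0.27 for Vegfa, -0.73 for Slc27a2, -0.45 for Cd274, -0.25 for Arg2, -0.10 for Lgals9 and -0.01 for Il10. Over all genes tested, 8.21% were highest and 8.31% lowest in that sample in all 4 groups. The share of all genes for 3 of 4 groups was not calculated. Taken as differences between same-numbered samples, Tβ-MCA minus PBS on the log2 scale, Cd274 gave 0.85 for number 3 and 0.11 for number 5, Arg2 gave 0.49 and 0.03, and Slc27a2 gave -0.75 and -0.12. What the numbers stand for is not given in the labels.

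Other cell types left traces in the same bulk libraries, and some of these were lower with Tβ-MCA and in GCA replicate 4. The 8 eosinophil genes summed to 158 to 274 CPM with PBS and 60.3 to 140 CPM with Tβ-MCA, and 1 of 8 fell (Siglecf, log2 fold change -0.93, edgeR adjusted p = 0.0326). That is 12.5% of the list, against 3.18% of all genes called lower. The 10 genes of erythroid cells and early progenitors summed to 265 to 273 CPM with PBS and to 48.1, 67.7 and 205 CPM in Tβ-MCA replicates 3, 4 and 5, with 0 of 8 tested called. Without Tβ-MCA replicate 5, which lay nearest to PBS in both sums, 5 of these 8 and 4 of the 8 eosinophil genes were called lower. None of them was called higher, and 9.44% of all genes were then called lower. With GCA, the eosinophil sum was 127 to 268 CPM and the erythroid and progenitor sum 177 to 271 CPM, replicate 4 being the lowest in both. With TCA they were 152 to 242 CPM and 220 to 241 CPM. Of 8 genes of B and plasma cells 1 fell (Cd79a, -0.81), also 12.5%, and 0 were called among 8 genes of basophils and mast cells, 7 tested of dendritic cells and 5 tested of T and NK cells. Their part in the effector results was not tested.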
